A study of Mus musculus with 9 samples.

Results

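The transcripts of 10 mouse cell cycle genes were followed in 9 RNA-seq libraries. The genes were the D-type cyclins Ccnd1, Ccnd2 and Ccnd3, the E-type cyclins Ccne1 and Ccne2, the mitotic cyclins Ccna2, Ccnb1 and Ccnb2, and the kinases Cdk1 and Cdk2. They were chosen by name as core cyclins and their kinases, and each symbol was found once in every library, which gave 10 of the 56691 genes in the tables. The question asked of them was whether their transcripts differed with enforced NRF1 expression, and whether they differed between the cells sorted as BV+ and BV- from the embryoid bodies.

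The libraries came from mouse BVSC pluripotent stem cells (PSCs), which report Blimp1 through mVenus (BV) and Stella through CFP and were differentiated as embryoid bodies. The study sorted BV+ cells as primordial germ cell-like cells (PGCLCs) and BV- cells as the surrounding somatic cells. Cells carried either the p20 vector with an Nrf1 cDNA (NRF1 OE) or the empty p20 vector (Ctrl), and all 4 groups received doxycycline (DOX) at 1.5 μg/mL from day 2 to day 5, so the controls shared the drug and the vector backbone. There were 2 libraries of BV+ NRF1 OE, 2 of BV+ Ctrl, 3 of BV- NRF1 OE and 2 of BV- Ctrl. A single reporter line was used. The paper describes its RNA-seq replicates as biological, but the labels do not say whether libraries of a group came from separate cultures. Each p-value thus measures the spread between these libraries, and how far that spread is technical is not known.

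Cyclins are the regulatory subunits of cyclin-dependent kinases (CDKs), and their rise and fall orders the cell cycle. D-type cyclins with CDK4 or CDK6 start the phosphorylation of RB, E-type cyclins with CDK2 carry cells into S phase, cyclin A2 acts with CDK2 and CDK1 through S phase and G2, and B-type cyclins with CDK1 drive mitosis. Pluripotent cells divide fast, with a short G1 phase. NRF1 is a transcription factor best known for genes of mitochondrial function, and it binds a GC-rich palindromic motif.

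Promoter sequence is shown for 4 of the genes, because the genes of the G2 and M phases are commonly controlled through CCAAT boxes and cell cycle homology elements, and because NRF1 itself acts at promoters. RefSeq windows on build GRCm38.p6 were matched by symbol for 6 of the 10 genes (7 windows, since Ccnd3 has 2 start sites). Each sequence is the part of the 250 bases before the start site that lies outside annotated exons, on the strand of the gene, with CCAAT (or its reverse complement, ATTGG) and TTTGAA in capitals.
Ccnb2 (chr9:70421555-70421804, minus strand): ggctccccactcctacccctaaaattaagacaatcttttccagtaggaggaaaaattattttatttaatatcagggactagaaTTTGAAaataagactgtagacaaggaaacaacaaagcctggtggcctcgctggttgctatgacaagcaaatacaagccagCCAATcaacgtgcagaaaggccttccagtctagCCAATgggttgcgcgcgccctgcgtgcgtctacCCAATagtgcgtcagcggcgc
Cdk1 (chr10:69352939-69353162, minus strand): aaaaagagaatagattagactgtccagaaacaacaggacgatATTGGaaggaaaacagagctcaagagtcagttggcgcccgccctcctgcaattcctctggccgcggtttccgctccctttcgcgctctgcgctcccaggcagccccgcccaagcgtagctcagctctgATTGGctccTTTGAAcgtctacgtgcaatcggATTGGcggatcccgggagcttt
Ccne1 (chr7:38107535-38107740, minus strand): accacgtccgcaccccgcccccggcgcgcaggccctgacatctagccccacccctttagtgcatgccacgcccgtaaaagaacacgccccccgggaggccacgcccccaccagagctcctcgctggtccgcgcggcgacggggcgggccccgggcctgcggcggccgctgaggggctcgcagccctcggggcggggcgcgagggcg
Ccnd3 (chr17:47593217-47593435, plus strand): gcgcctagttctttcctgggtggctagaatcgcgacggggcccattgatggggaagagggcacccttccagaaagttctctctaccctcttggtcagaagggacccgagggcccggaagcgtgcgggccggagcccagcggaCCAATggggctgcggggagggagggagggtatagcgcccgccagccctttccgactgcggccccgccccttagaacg
The Ccnb2 window held 3 CCAAT boxes that began 87, 54 and 21 bases before the start site, each 33 bases from the next, and TTTGAA at 167 bases. The Cdk1 window held ATTGG at 208, 80 and 48 bases and TTTGAA at 71 bases. The second Ccnd3 window held a single CCAAT, and Ccne1 held none.

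Over both strands, CCAAT was found in 5 of the 7 windows of these genes and in 33.8% of the 32851 RefSeq windows of 250 bases, and TTTGAA was found in those of Ccnb2 and Cdk1 and in 16.0% of all windows. The GC box GGGCGG was in 6 of 7, against 32.7% of all windows. The NRF1 motif (GCGCA, any base, GCGC) was in none of the 7 and in 3.74% of all windows. The exact E2F strings TTTGGCGC and TTCCCGCC, at 0.417% and 1.86% of all windows, and the variant TTCGAA, at 1.34%, were in none of the 7 either. Other forms of the E2F site were not searched for, and these windows may hold them. These counts describe the letters in the windows and not binding, and with 7 windows the absence of a rare motif decides nothing. Ccna2, Ccnd1, Ccnd2 and Ccne2 had no window and were not searched.

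Before the cyclins, the libraries were checked against their labels. The cDNA was that of mouse Nrf1, so reads from the vector can fall on the Nrf1 gene. Nrf1 stood at 95.7 and 99.4 CPM (counts scaled to library size) in BV+ NRF1 OE against 91.1 and 90.4 in BV+ Ctrl, and at 119, 122 and 126 in BV- NRF1 OE against 99.1 and 105 in BV- Ctrl. The NRF1 OE libraries were above their controls in both fractions, with log2 fold changes of 0.10 (adjusted p = 0.489) and 0.26 (adjusted p = 0.0718) in edgeR's quasi-likelihood test, so the level of Nrf1 did not separate the groups at the threshold used, and the group names are those of the labels. Prdm1, which encodes BLIMP1 and drives the sorted reporter, lay between 42.4 and 62.8 CPM in all 9 libraries and was not called between BV+ and BV- cells by edgeR (log2 fold change 0.05, adjusted p = 1.00 with Ctrl, and 0.00, adjusted p = 0.998 with NRF1 OE). Dppa3, which encodes Stella, stood higher in BV- libraries, at 162, 144 and 124 CPM against 96.6 and 86.3 in BV+ cells with NRF1 OE (BV+ against BV- -0.65, adjusted p = 0.00536), and at 79.1 and 81.1 against 60.3 and 56.8 with Ctrl (-0.45, adjusted p = 0.223, not called).

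The BV- cells also carried pluripotency transcripts. The 11 naive and core pluripotency markers summed to between 3984 and 4580 CPM in BV- libraries and to between 3202 and 3790 CPM in BV+ libraries. The 12 germ cell markers summed to between 607 and 668 CPM in BV+ and to between 665 and 831 CPM in BV- libraries, and 1 was called higher and 3 lower in BV+ than in BV- cells with NRF1 OE. Mesoderm markers were low throughout, with sums of 10.8 to 40.9 CPM over 9 genes. Mesenchyme markers, 7 genes with Col1a2 and Acta2 among them, summed to 750 to 1275 CPM in BV+ NRF1 OE, 217 to 221 in BV+ Ctrl, 87.0 to 129 in BV- NRF1 OE and 52.8 to 66.1 in BV- Ctrl, and 2 of the 7 were under 1 CPM throughout each BV- group while none was at 0 throughout a group. Neuroectoderm markers, 5 genes, kept that order of groups. Their sums were 112 to 165, 65.5 to 72.4, 37.6 to 49.4 and 29.8 to 39.1 CPM, overlapping between the BV- groups. The sums of the epiblast, endoderm, and blood and endothelium lists did not keep it. The lists whose sums are given here move with the comparisons, and their part in the results on cyclins was not tested. In sorted bulk samples, fewer cells of a type and less RNA per cell cannot be told apart.

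Total counts per library ran from 13702162 to 19625460. Within groups, libraries differed by far more than counting noise. The libraries also differed in how a gene's level moved with its GC content. Spearman's rho between GC content and a gene's deviation from its mean over the libraries, over 12702 genes, was between -0.60 and -0.52 in the 4 Ctrl libraries, 0.33 and 0.00 in BV+ NRF1 OE, and 0.06, 0.70 and 0.58 in BV- NRF1 OE. NRF1 OE and this trend cannot be told apart by the design, so values with offsets for GC content and transcript length are given beside the results whose call or direction they change.

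All 10 genes passed the filter on low counts. Levels between genes were read as FPKM, which divides by gene length. In BV- Ctrl the order of mean FPKM was Ccna2 (133 ± 4.0, SD, n = 2), Ccnb2 (110.5 ± 3.2), Ccnb1 (86.8 ± 0.83), Ccne1 (76.8 ± 4.0), Cdk1 (43.3 ± 3.0), Ccnd1 (38.4 ± 1.3), Cdk2 (18.3 ± 1.1), Ccnd3 (13.6 ± 1.2), Ccne2 (6.86 ± 0.38) and Ccnd2 (3.46 ± 0.40). BV+ Ctrl kept this order, and in both Ctrl groups none of the 9 neighbouring pairs overlapped between libraries. In BV+ NRF1 OE, Ccnb2 and Ccna2 changed places with overlapping ranges, and Ccnd3 (17.1 and 21.1 FPKM) stood above Cdk2 (15.6 and 16.1). In BV- NRF1 OE, Ccnb2 (121) stood above Ccna2 (119), and Ccne1 (84.1) above Ccnb1 (79.7). Both of these pairs overlapped between libraries, as did Cdk2 with Ccnd3.

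The spread of a gene over the 9 libraries was small for most members. The log2 range of CPM was 0.30 for Cdk1 and 0.31 for Cdk2, and only 3.8% and 4.1% of the 16903 genes tested had a smaller range. It was 0.34 for Ccnb2, 0.38 for Ccnb1 and 0.41 for Ccna2, with 5.8% to 9.7% of genes below them. Ccne1, Ccnd1, Ccnd3 and Ccne2 lay between, with 21.4% to 37.7% of genes below them. At the other end, Ccnd2 had a range of 1.68, above that of 81.3% of genes. These shares are over genes of all levels, and the members are more abundant than most genes.

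**Figure D1:**
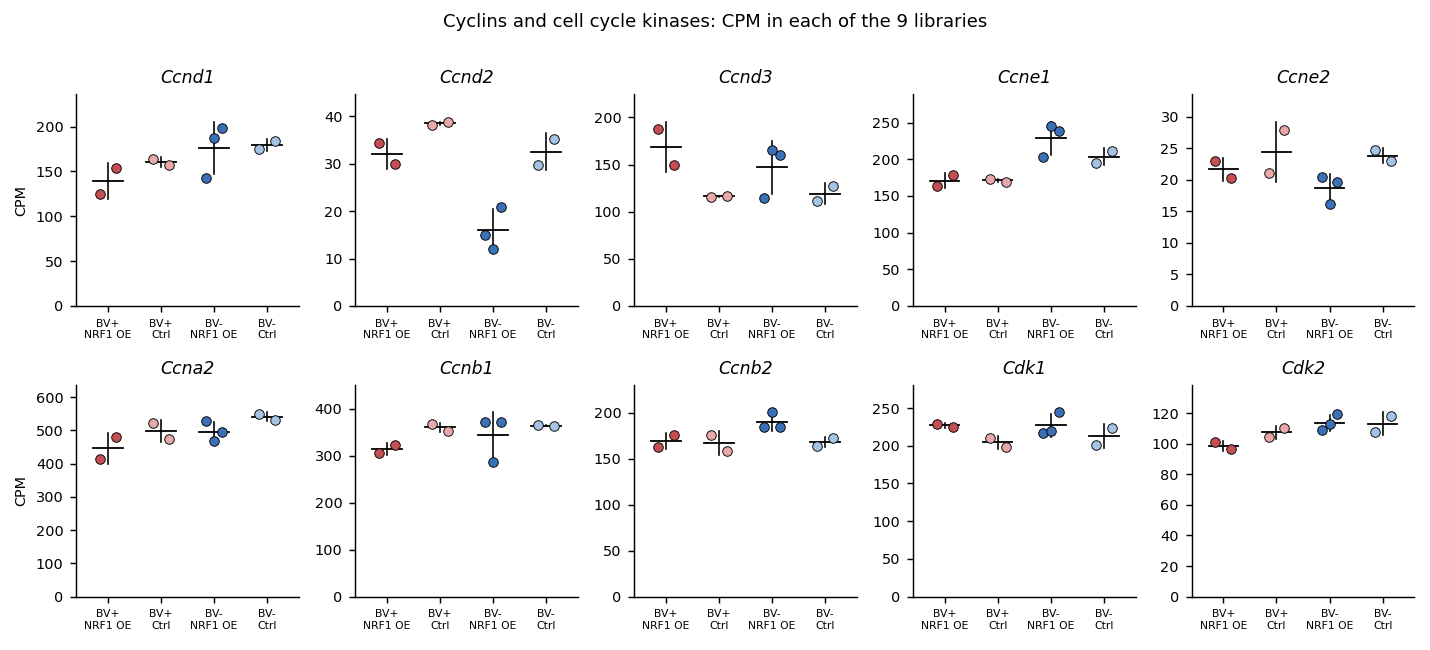
CPM (TMM-scaled, linear axes from 0) of the 10 genes in each library, by group, with the group mean as a horizontal line and the SD as a vertical line. The 3 BV- NRF1 OE libraries lie between 12.0 and 20.9 CPM for Ccnd2, below the other 6 libraries (29.7 to 38.7), while Cdk1 stays between 199 and 244 CPM in all 9.

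Ccnd2 (ENSMUSG00000000184), a D-type cyclin that in many tissues responds to growth signals, was the member that differed most. It stood at 15.0, 12.0 and 20.9 CPM in BV- NRF1 OE and at 29.7 and 35.2 CPM in BV- Ctrl. BV+ cells held 34.3 and 29.8 CPM with NRF1 OE and 38.2 and 38.7 CPM with Ctrl. All 3 BV- NRF1 OE libraries were thus below every library of the other groups. How many of all genes split in this way was not counted. BV- NRF1 OE did not overlap BV- Ctrl for 57.0% of all genes, or BV+ NRF1 OE for 39.9%.

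In BV- cells, Ccnd2 was 0.494-fold with NRF1 OE relative to Ctrl (log2 fold change -1.02, SE 0.19, 95% CI -1.44 to -0.60, edgeR adjusted p = 0.0317). It was the single member called of 10 in this comparison, in which 17.2% of all genes tested were called. With GC and length offsets the log2 fold change was -0.75 (adjusted p = 0.0327). The call was lost when only these groups were fitted (-1.03, adjusted p = 0.0806), without BV- Ctrl replicate 1 (-1.13, adjusted p = 0.311) and without BV- Ctrl replicate 2 (-0.90, adjusted p = 0.117). Over its alternatives the adjusted p ran from 7.13e-08 to 0.311, and the sign never changed.

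Ccnd2 was also 2.00-fold in BV+ relative to BV- cells with NRF1 OE (log2 fold change 1.00, SE 0.19, 95% CI 0.58 to 1.42, edgeR adjusted p = 0.00518). This comparison uses the same BV- NRF1 OE libraries as the one above, so these results are not independent. Without BV+ NRF1 OE replicate 1 the value was 0.90 and the call was lost (adjusted p = 0.0723, within a range over alternatives of 3.71e-08 to 0.0723). With Ctrl, the value for BV+ against BV- cells was 0.24 (95% CI -0.21 to 0.70, adjusted p = 0.933). In BV+ cells, NRF1 OE relative to Ctrl gave -0.26 (95% CI -0.71 to 0.19, adjusted p = 0.380). The 2 effects of NRF1 OE differed by 0.75 on the log2 scale between the fractions (SE 0.28, 95% CI 0.14 to 1.37, unadjusted p = 0.0209, adjusted p = 0.758 by edgeR), which did not pass. Ccnd2 overlaps exons of 9330179D12Rik and Gm43126 on the opposite strand in the GRCm38 annotation, and whether reads were counted by strand was not stated.

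Ccnd3 (ENSMUSG00000034165), the D-type cyclin best known from lymphoid cells, had the largest log2 fold change of the 10 with NRF1 OE in BV+ cells. It stood at 188 and 150 CPM in BV+ NRF1 OE and at 116 and 117 CPM in BV+ Ctrl. The BV- libraries held 114, 166 and 161 CPM with NRF1 OE and 111 and 127 CPM with Ctrl. NRF1 OE libraries were above Ctrl without overlap in BV+ cells, and they overlapped in BV- cells through BV- NRF1 OE replicate 1.

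In BV+ cells the fold change of Ccnd3 was 1.45 (log2 fold change 0.54, SE 0.18, 95% CI 0.15 to 0.92, unadjusted p = 0.0106, edgeR adjusted p = 0.0748), which did not pass. DESeq2 called it (0.54, adjusted p = 0.0407), as did edgeR without the filter on low counts (adjusted p = 0.00682) and with only the BV+ groups fitted (adjusted p = 0.0147). With GC and length offsets it was 0.23 (adjusted p = 0.149). Ccnd3 had the highest GC content of the 10 genes, 56.7%. In BV- cells the value was 0.30 (95% CI -0.05 to 0.66, adjusted p = 0.183), -0.03 with the offsets (adjusted p = 0.887), and 0.46 without BV- NRF1 OE replicate 1, when it was called (adjusted p = 0.0193). Adjusted p over the alternatives ran from 0.00682 to 0.463 in BV+ and from 0.0193 to 0.887 in BV- cells. The gene overlaps exons of Bysl on the opposite strand.

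Ccnd1 (ENSMUSG00000070348), the D-type cyclin most widely used by dividing cells, was not called with NRF1 OE in either fraction. It stood at 125 and 153.5 CPM in BV+ NRF1 OE, 164 and 157 in BV+ Ctrl, 143, 187 and 199 in BV- NRF1 OE, and 175 and 184 in BV- Ctrl. BV+ NRF1 OE lay below BV+ Ctrl, with a log2 fold change of -0.21 (95% CI -0.55 to 0.14, adjusted p = 0.365). BV+ was below BV- with NRF1 OE by -0.34 (adjusted p = 0.146), with overlap, and this became a call with GC and length offsets (-0.35, adjusted p = 0.0358) and without BV- NRF1 OE replicate 1 (-0.47, adjusted p = 0.0194). Its exons overlap LTO1 on the opposite strand.

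Per length, the D-type cyclins were mostly Ccnd1. Ccnd1 made up 65.6% to 70.1% of their summed FPKM in the 4 Ctrl libraries, 51.5% and 61.7% in BV+ NRF1 OE, and 66.3% to 67.5% in BV- NRF1 OE. The share of Ccnd3 was 23.9% to 26.2% in the 4 Ctrl libraries and 28.9% to 41.5% in the 5 NRF1 OE libraries, without overlap. FPKM carry no GC and length offsets, with which the log2 fold change of Ccnd3 was 0.23 in BV+ and -0.03 in BV- cells. In BV- NRF1 OE replicate 1, Ccnd3 (12.78 FPKM) and the D-type sum (44.2) were both the lowest of all libraries. Ccnd2 was 2.12% to 3.55% of the D-type sum in BV- NRF1 OE and 5.95% to 8.11% in the other 6 libraries. The summed D-type FPKM itself was 51.0 and 53.0 in BV+ NRF1 OE, 53.3 and 51.9 in BV+ Ctrl, 44.2, 59.3 and 60.7 in BV- NRF1 OE, and 53.4 and 57.5 in BV- Ctrl, which overlapped between NRF1 OE and Ctrl in both fractions. These shares rest on the same counts as the tests above and are given as a description.

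**Figure D2:**
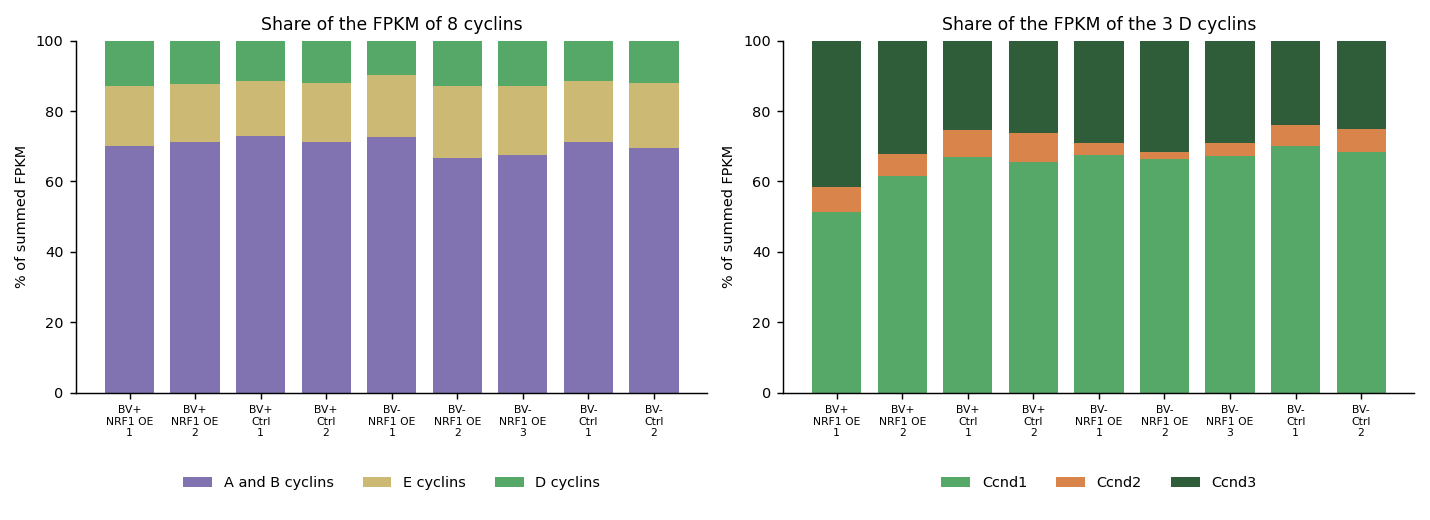
Stacked bars of FPKM shares in each library, named by group and replicate number, for the A and B, E and D cyclins among 8 cyclins (left) and for the 3 D cyclins (right). On the left the A and B cyclins hold 66.7% to 72.8% in every library. On the right the Ccnd3 share is larger in the 5 NRF1 OE libraries than in the 4 Ctrl libraries, without offsets for GC content.

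Ccne1 (ENSMUSG00000002068), which with CDK2 fires entry into S phase, was lower in BV+ than in BV- cells. The difference was called with NRF1 OE but not with Ctrl. It stood at 164 and 178 CPM in BV+ NRF1 OE, 173 and 170 in BV+ Ctrl, 203, 245 and 238 in BV- NRF1 OE, and 195 and 212 in BV- Ctrl. All 4 BV+ libraries were below all 5 BV- libraries, and the share of all genes split in this way was not counted.

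With NRF1 OE, Ccne1 was 0.748-fold in BV+ relative to BV- cells (log2 fold change -0.42, SE 0.11, 95% CI -0.66 to -0.18, edgeR adjusted p = 0.0267), and it remained called with GC and length offsets (-0.35, adjusted p = 0.00595). With Ctrl the value was -0.25 (95% CI -0.51 to 0.01, unadjusted p = 0.0597, adjusted p = 0.669). The call with NRF1 OE was lost when only these groups were fitted (-0.38, adjusted p = 0.128), without BV+ NRF1 OE replicate 1 (-0.36, adjusted p = 0.189), without BV+ NRF1 OE replicate 2 (-0.48, adjusted p = 0.0624) and without BV- NRF1 OE replicate 3 (-0.38, adjusted p = 0.128). Adjusted p over all its alternatives ran from 0.00595 to 0.189. NRF1 OE relative to Ctrl gave 0.00 in BV+ cells (95% CI -0.26 to 0.26) and 0.17 in BV- cells (95% CI -0.07 to 0.41, adjusted p = 0.267), and with the offsets -0.23 and -0.10. No exon of another gene overlaps it in the annotation.

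Ccne2 (ENSMUSG00000028212), the second E-type cyclin, was a minor transcript. It lay between 16.1 and 27.9 CPM over the 9 libraries and made up 4.78% to 11.1% of the summed E-type FPKM. In BV- cells it was 20.4, 16.1 and 19.6 CPM with NRF1 OE and 24.7 and 23.0 CPM with Ctrl, without overlap. The log2 fold change of -0.35 (95% CI -0.69 to -0.0042, unadjusted p = 0.0476, edgeR adjusted p = 0.124) did not pass and turned to 0.17 with GC and length offsets. In BV+ cells the value was -0.18 (adjusted p = 0.471), and 0.15 with the offsets. Ccne2 had the lowest GC content of the 10 genes, 36.3%, and its exons overlap Ints8 on the opposite strand.

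The mitotic cyclins Ccna2 (ENSMUSG00000027715), Ccnb1 (ENSMUSG00000041431) and Ccnb2 (ENSMUSG00000032218) were not called in any of the comparisons. Ccna2, the cyclin of S phase and G2, stood at 414 and 479 CPM in BV+ NRF1 OE, 521 and 475 in BV+ Ctrl, 527, 467 and 495 in BV- NRF1 OE, and 550.5 and 531 in BV- Ctrl. Both BV- Ctrl libraries were the highest of the 9. NRF1 OE relative to Ctrl gave -0.16 in BV+ (95% CI -0.40 to 0.08) and -0.12 in BV- cells (95% CI -0.35 to 0.10). With GC and length offsets the value in BV- cells turned to 0.04.

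Ccnb1, whose product with CDK1 triggers entry into mitosis, stood at 305 and 323 CPM in BV+ NRF1 OE against 367 and 353 in BV+ Ctrl, without overlap (log2 fold change -0.20, 95% CI -0.48 to 0.09, adjusted p = 0.30). It stood at 371, 287 and 372 CPM in BV- NRF1 OE and 365 and 363 in BV- Ctrl. The lowest of the 9 was BV- NRF1 OE replicate 2, and the value in BV- cells was -0.08 (95% CI -0.34 to 0.18), or 0.16 with GC and length offsets (adjusted p = 0.191).

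Ccnb2, the other B-type cyclin among the 10 genes, stood at 163 and 175 CPM in BV+ NRF1 OE, 176 and 158 in BV+ Ctrl, 184, 201 and 184 in BV- NRF1 OE, and 164 and 172 in BV- Ctrl. BV- NRF1 OE was the highest group, without overlap with BV- Ctrl (0.17, 95% CI -0.04 to 0.39, adjusted p = 0.215). In BV+ cells the value was 0.02, and -0.05 with GC and length offsets. Ccnb1 and Ccnb2, whose windows both held CCAAT (that of Ccnb1 is not shown), had a Pearson's r of -0.28 over the 9 libraries. Ccna2 and Ccnb1 had one of 0.75. With GC and length offsets, Ccna2 (-0.21, adjusted p = 0.0351) and Ccnb1 (-0.23, adjusted p = 0.0343) became calls for BV+ against BV- cells with NRF1 OE. Exosc9 overlaps Ccna2 on the opposite strand, and nothing overlaps the B-type genes.

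Cdk1 and Cdk2 had the smallest ranges of the 10 genes over the libraries, as given above. Cdk1 (ENSMUSG00000019942), the mitotic kinase, stood at 229 and 225 CPM in BV+ NRF1 OE, 210.0 and 199 in BV+ Ctrl, 217, 220 and 244 in BV- NRF1 OE, and 201 and 224 in BV- Ctrl. In BV+ cells the NRF1 OE libraries were above Ctrl (0.15, 95% CI -0.09 to 0.39, adjusted p = 0.334), and in BV- cells the groups overlapped (0.10, 95% CI -0.12 to 0.31). With GC and length offsets these values were 0.26 (adjusted p = 0.0835) and 0.25 (adjusted p = 0.0943).

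Cdk2 (ENSMUSG00000025358), the partner of the E-type cyclins and of cyclin A2, stood at 101 and 96.5 CPM in BV+ NRF1 OE, 104 and 111 in BV+ Ctrl, 109, 113 and 119 in BV- NRF1 OE, and 108 and 119 in BV- Ctrl. BV+ NRF1 OE was the lowest group (-0.12 against BV+ Ctrl, 95% CI -0.36 to 0.12). In BV- cells the groups overlapped, at 0.01 (95% CI -0.21 to 0.23). Cdk1 made up 69.4% to 74.6% of the FPKM of the pair in the 9 libraries. Pmel overlaps Cdk2 on the opposite strand, and nothing overlaps Cdk1.

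**Figure D3:**
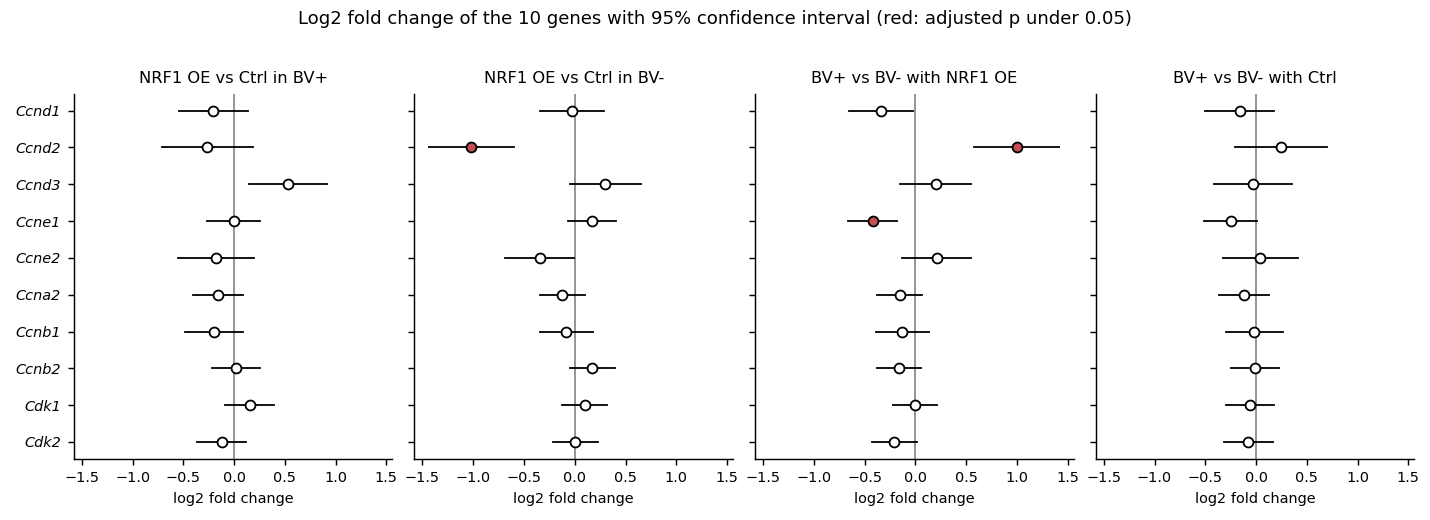
Log2 fold changes (points) with 95% confidence intervals (lines) of the 10 genes in 4 comparisons, filled in red where the adjusted p is under 0.05. Red points are Ccnd2 for NRF1 OE against Ctrl in BV- cells (-1.02), and Ccnd2 (1.00) and Ccne1 (-0.42) for BV+ against BV- cells with NRF1 OE.

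Counted together, 0 of the 10 genes were called for NRF1 OE against Ctrl in BV+ cells by edgeR (1 at an unadjusted p under 0.05, Ccnd3, and 1 by DESeq2), where 8.02% of all genes tested were called and 32.5% had an unadjusted p under 0.05. In BV- cells 1 of 10 was called, against 17.2%, and 2 had an unadjusted p under 0.05, against 39.1%. For BV+ against BV- cells, 2 were called with NRF1 OE, against 13.8%, and 3 had an unadjusted p under 0.05, against 28.2%. With Ctrl 0 were called by edgeR, against 1.12% (0 at an unadjusted p under 0.05, against 7.77%, and 0 by DESeq2). For the difference of the NRF1 OE effects between the fractions, 0 of 10 were called (1 at an unadjusted p under 0.05, 0 by DESeq2), against 0.0% of all genes (0 by edgeR, 932 or 5.51% at an unadjusted p under 0.05, 23 by DESeq2). The study's own threshold asked for an unadjusted p under 0.05 and a log2 fold change beyond 0.58 in either direction. By it, Ccnd2 was the only member to pass, in BV- cells (16.0% of all genes passed), in BV+ against BV- cells with NRF1 OE (14.7%) and in the difference of effects (4.48%). No member passed it in BV+ cells (17.0%) or between the fractions with Ctrl (5.74%).

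The median absolute log2 fold change of the members was 0.17 against 0.34 over all genes for NRF1 OE in BV+ cells, 0.15 against 0.35 in BV- cells, 0.20 against 0.26 between the fractions with NRF1 OE, and 0.07 against 0.14 with Ctrl. The members are also more abundant than most genes. Of the 10, 8 had a mean level above that of at least 87.1% of the genes tested, and Ccnd2 and Ccne2 stood above 60.1% and 56.3%. The groups did not overlap for 6 members in BV+ cells, where this was so for 70.1% of all genes, and for 4 in BV- cells, against 57.0%. Between BV+ and BV- cells they did not overlap for 4 with NRF1 OE, against 39.9%, and for 4 with Ctrl, against 48.0%.

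The offsets for GC content and transcript length moved most values. For NRF1 OE in BV- cells, 5 members changed sign (Ccna2, Ccnb1, Ccnd3, Ccne1 and Ccne2), none of them called with or without the offsets. In BV+ cells Ccnb2 and Ccne2 did. Ccnd2 in BV- cells kept its sign and its call. Between the fractions with NRF1 OE, the offsets raised the members called from 2 to 5, and all genes called from 2325 to 4097. The part of the GC trend in these values beyond the offsets was not tested.

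**Figure D4:**
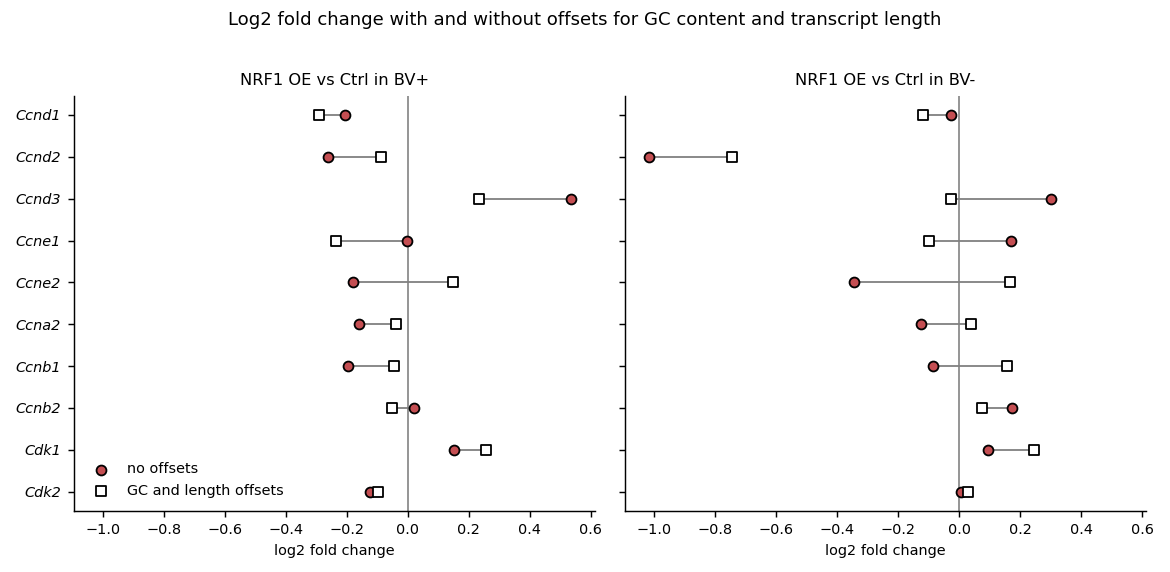
Log2 fold change of NRF1 OE against Ctrl for the 10 genes in BV+ cells (left) and BV- cells (right), without offsets (red circles) and with offsets for GC content and transcript length (white squares). Ccnd3 moves from 0.54 to 0.23 in BV+ and from 0.30 to -0.03 in BV- cells, and Ccnd2 in BV- cells moves from -1.02 to -0.75.

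The genes with the most similar pattern were named by the highest Pearson correlation of log2 CPM over the 9 libraries, which share groups, depth and base composition, so the values are a description. For Ccnd2 they were Sox4 (r = 0.991) and Slc7a2 (0.981). For Ccnd3 they were Mlec (0.986) and Cant1 (0.984), for Ccnd1 Wbp2nl (0.968) and Gse1 (0.967), for Ccne1 Cog4 (0.991) and Gemin5 (0.989) and for Ccne2 Igsf6 (0.987) and Zscan30 (0.981). For Ccna2 they were Gm973 (0.969) and 4933427D06Rik (0.968), for Ccnb1 Sv2c (0.971) and Gm9788 (0.965), for Ccnb2 Ube2a (0.97) and Gm15590 (0.964), for Cdk1 9130221H12Rik (0.940) and Kifbp (0.938), and for Cdk2 Gm10863 (0.936) and Nfkbid (0.934). Among the members themselves, the pairs with the highest and lowest r were Ccnd2 with Ccne2 (0.79) and Ccnb2 with Ccne2 (-0.96).

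The other genes of the cell cycle were taken as 9 lists of 95 genes, of which 94 were tested. With NRF1 OE in BV+ cells, 4 of the 94 were higher and 0 lower (4.26%, against 8.02% of all genes, 6.24% higher and 1.78% lower). The balance turned with the fit, to 11 higher and 17 lower with only these groups fitted, 5 and 5 with GC and length offsets, and 8 and 10 of 95 without the filter on low counts. The count over all genes moved too, from 1355 to 4371, 1988 and 3440 in these fits. The inhibitor Cdkn1c, which encodes p57 and blocks G1 kinases, rose from 14.6 and 17.0 CPM with Ctrl to 57.3 and 33.0 CPM with NRF1 OE (log2 fold change 1.51, SE 0.22, edgeR adjusted p = 0.0125). The other calls were Cdkn2d (0.75, adjusted p = 0.0483), an INK4 inhibitor of CDK4 and CDK6, Cdk14 (0.67, adjusted p = 0.0386), a kinase activated by cyclin Y, and Jun (1.01, adjusted p = 0.0450), an AP-1 factor that can induce Ccnd1. Cdkn2d was lost with the offsets (0.39, adjusted p = 0.170), with upper-quartile factors (0.72, adjusted p = 0.0532) and without BV+ NRF1 OE replicate 2 (0.79, adjusted p = 0.0666), as was Jun without that library (1.10, adjusted p = 0.0566). Cdkn1c stayed called with GC and length offsets (1.06, adjusted p = 0.00430), but not without BV+ NRF1 OE replicate 1 (1.06, adjusted p = 0.126), BV+ Ctrl replicate 1 (1.41, adjusted p = 0.123) or BV+ Ctrl replicate 2 (1.63, adjusted p = 0.166). Over these 94 genes, 0 were called without any one of these 3 libraries, and 3 were higher and 2 lower without BV+ NRF1 OE replicate 2.

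In BV- cells with NRF1 OE, 9 of the 94 were higher and 7 lower (17.0%, against 17.2% of all genes, 10.2% higher and 6.98% lower). Cdk4, the D-type cyclin kinase, rose from 599.7 and 649.7 CPM with Ctrl to 728.5, 870 and 855.5 CPM (0.39, SE 0.11, edgeR adjusted p = 0.0374), and in BV+ cells the value was 0.38 (adjusted p = 0.0621). E2f1, the S phase activator held by RB, rose by 0.55 (adjusted p = 0.0317), Mybl2 by 0.37 (adjusted p = 0.0379), Pkmyt1, an inhibitory kinase of CDK1, by 0.43 (adjusted p = 0.0403), Cdc20, an activator of the anaphase-promoting complex, by 0.50 (adjusted p = 0.0317), and Fbxo31, a ubiquitin ligase subunit that targets cyclin D1, by 0.56 (adjusted p = 0.0317). Of the lower genes, the RB relative Rbl1 fell by 0.63 (adjusted p = 0.0362), the DREAM subunit Lin54 by 0.64 (adjusted p = 0.0411), and the mitotic checkpoint kinases Bub1 and Ttk by 0.71 (adjusted p = 0.0456) and 0.69 (adjusted p = 0.0448).

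These calls in BV- cells depended on the fit. The count over all genes (2910) moved with the fit too, to 0 with only the BV- groups fitted and 922 with GC and length offsets. With only the BV- groups fitted, 0 of the 94 were called. With GC and length offsets 5 of the 94 were higher and 1 lower, and Cdk4 (0.09), E2f1 (0.15), Mybl2 (0.04), Pkmyt1 (0.05), Cdc20 (0.10), Fbxo31 (0.24), Rbl1 (-0.19), Bub1 (-0.33) and Ttk (-0.40) were no longer called (adjusted p between 0.0785 and 0.80). Lin54 has no GC value and kept its call without a correction. Over all genes, 5847 were called without BV- NRF1 OE replicate 1, 2460 without replicate 2 and 35 without replicate 3. None of the 94 was called without BV- Ctrl replicate 1, BV- Ctrl replicate 2 or BV- NRF1 OE replicate 3, whereas 21 were higher and 20 lower without BV- NRF1 OE replicate 1, and 5 higher and 8 lower without BV- NRF1 OE replicate 2.

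The 9 proliferation markers had no call in either fraction, where 8.02% (BV+) and 17.2% (BV-) of all genes tested were called. In BV- cells 7 of 9 were lower with NRF1 OE (median log2 fold change -0.57, against 0.01 over all genes). There 6 of the 9 had an unadjusted p under 0.05, of which Cenpa was higher, where 39.1% of all genes had one. Mki67, which encodes the Ki-67 antigen, stood at 279, 126 and 282 CPM in BV- NRF1 OE, 356 and 325 in BV- Ctrl, 299.9 and 345.5 in BV+ NRF1 OE, and 352 and 389 in BV+ Ctrl. BV- NRF1 OE replicate 2 was the lowest library for Mki67, Top2a, Cenpe, Cenpf, Kif11, Kif20a and Tpx2. With GC and length offsets the median of the list in BV- cells was -0.18 (6 of 9 lower). In BV+ cells it was -0.15, and 0.06 with the offsets.

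**Figure D5:**
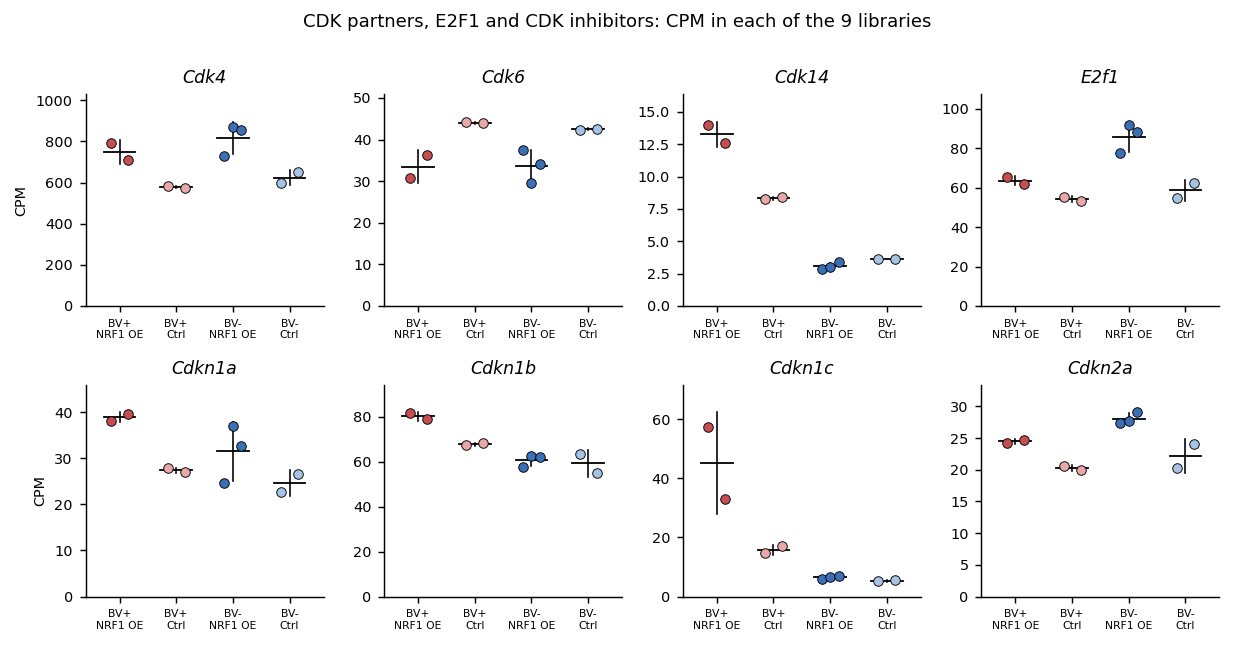
CPM (linear axes from 0) of 8 partners and inhibitors of the cyclins in each library, with the group mean as a horizontal line and the SD as a vertical line. Cdkn1c reaches 57.3 and 33.0 CPM in BV+ NRF1 OE and stays between 5.10 and 6.87 CPM in BV- cells, and Cdk4 is above its controls in both NRF1 OE groups.

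Between BV+ and BV- cells with NRF1 OE, 7 of the 94 genes were higher and 4 lower in BV+ (11.7%, against 13.8% of all genes, 9.9% higher and 3.85% lower). Cdkn1c was 6.92-fold (log2 fold change 2.79, edgeR adjusted p = 8.90e-06), Cdk14 4.3-fold (2.11, adjusted p = 1.00e-05), Jun 4.59-fold (2.20, adjusted p = 0.000146) and Fos 4.54-fold (2.18, adjusted p = 0.00361). Ccng2, a cyclin linked to arrest, was 1.62-fold (0.69, adjusted p = 0.00444), and Cdkn1b, which encodes p27, 1.32-fold (0.40, adjusted p = 0.0287). The call of Cdkn1b was lost with GC and length offsets (0.13, adjusted p = 0.527), upper-quartile factors (adjusted p = 0.0574), no filter on low counts (adjusted p = 0.0581), only these groups fitted (adjusted p = 0.0844), and without BV+ NRF1 OE replicate 1 (adjusted p = 0.159), BV+ NRF1 OE replicate 2 (adjusted p = 0.0827) or BV- NRF1 OE replicate 3 (adjusted p = 0.0785). E2f1 (-0.43, adjusted p = 0.0292), Mybl2 (-0.49, adjusted p = 0.00787) and Fbxo31 (-0.43, adjusted p = 0.0188) were lower, and all 3 lost their calls with only these groups fitted (adjusted p between 0.0593 and 0.137). Stat3 (higher) and Mycn (lower) were the other calls, and both were named after their values were seen. The count over all genes (2325) moved with the fit, to 4097 with GC and length offsets and 1260 with only these groups fitted. It was 3182 without BV- NRF1 OE replicate 1 and 1514 without BV- NRF1 OE replicate 3. Without BV+ NRF1 OE replicate 1, 4 of the 94 were higher and 0 lower, without BV- NRF1 OE replicate 3, 6 and 0, without BV- NRF1 OE replicate 1, 10 and 11, with only these groups fitted, 5 and 0, and with GC and length offsets, 7 and 18.

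With Ctrl, 3 of the 94 were higher in BV+ cells and 0 lower (3.19%, against 1.12% of all genes, 1.1% higher and 0.0237% lower). They were Cdkn1c (3.00-fold, log2 fold change 1.58, edgeR adjusted p = 0.00969), Cdk14 (2.28-fold, 1.19, adjusted p = 0.00919) and Jun (2.63-fold, 1.39, adjusted p = 0.0421). Leaving out BV- Ctrl replicate 1, BV- Ctrl replicate 2 or BV+ Ctrl replicate 2 left 0 of the 94 called, and leaving out BV+ Ctrl replicate 1 left Cdkn1c (1.69, adjusted p = 0.0412). The mesenchyme markers given above were higher in the same direction (3 of 7 called with Ctrl and 6 of 7 with NRF1 OE), with Col1a2 at a log2 fold change of 3.46 with Ctrl and 5.08 with NRF1 OE, and their part in the results on Cdkn1c, Cdk14 and Jun was not tested.

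The remaining partners were followed in every comparison. Cdk6 was lower with NRF1 OE in both fractions without being called, at 30.8 and 36.2 CPM against 44.2 and 43.9 in BV+ cells (-0.40, edgeR adjusted p = 0.0902) and at 37.4, 29.6 and 34.1 CPM against 42.3 and 42.6 in BV- cells (-0.33, adjusted p = 0.0831). Cdkn1a, which encodes p21, was at 0.51 (adjusted p = 0.0857) and 0.35 (adjusted p = 0.134), Cdkn2a at 0.27 (adjusted p = 0.182) and 0.34 (adjusted p = 0.0690), and Rb1 at -0.43 (adjusted p = 0.270) and -0.63 (adjusted p = 0.0796) in BV+ and BV- cells. Cdkn1b was at 0.24 (adjusted p = 0.172) and 0.04 (adjusted p = 0.808). For the difference of the NRF1 OE effects between the fractions, 0 of the 94 genes were called by edgeR (4 at an unadjusted p under 0.05) or DESeq2. Cdkn1c stood at 1.21 (adjusted p = 0.571) and Cdk14 at 0.91 (adjusted p = 0.571) in that test. In the GRCm38 annotation, genes on the opposite strand overlap exons of Cdk4, Cdk6, Cdkn1a, Cdkn1c, Pkmyt1, Cdc20, Rb1, Jun and Stat3.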

How the data were processed

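RNA-seq was run by the authors on poly(A) RNA of 9 sorted libraries. The authors trimmed the reads, mapped them with HISAT2 2.0.1 and counted them per gene with HTSeq 0.6.1, and deposited raw counts for 56691 Ensembl genes. The authors also deposited FPKM values, counts scaled to gene length and library total, which were used here for levels between genes. Whether strand was used in counting is not given in the sources used here. Total counts were between 13702162 and 19625460 per library.

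Counts were fitted in edgeR 4.0.16 (R 4.3.3) with TMM factors (0.969 to 1.026), 4 groups in 1 fit of all 9 libraries, and the quasi-likelihood test. Filtering by expression left 16903 of 33142 genes with counts, p-values were adjusted over them by the Benjamini-Hochberg method, and a gene was called at an adjusted p under 0.05. All p-values named adjusted are from edgeR unless DESeq2 1.42.0 is named, and p-values named unadjusted are those of the same fit. CPM values were scaled by TMM. Fits were tested on simulated data with the same relative spread for every gene and no GC trend, unlike these libraries. Correlations used log2 CPM with a prior count of 2.

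The members, the gene lists and the tests were chosen with earlier results of these data known. Named were all 10 members, direct partners and inhibitors of the cyclins (Cdk4, Cdk6, Cdkn1a, Cdkn1b, Cdkn1c, Cdkn2a, Rb1), the 2 genes of each pathway list with the smallest p where called, and the 2 genes most correlated with each member. Exceptions are said in the text. Alternatives were DESeq2, DESeq2 size factors and upper-quartile factors in edgeR, no filter, only the groups compared, the replicate number as a block, offsets for GC content and length (16662 genes with a value), and each library left out. Where this left 1 library in a group, that library was assumed to vary like the other groups. Replicates differed by more than counting noise (chi-square per degree of freedom 2.99 to 34.7), so each counted as 1 sample. Promoter sequences came from RefSeq (GRCm38.p6). The authors' genome build differs from that of the annotation used for overlaps and GC content (GRCm38).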

Additional observations from a re-analysis of the deposited data

How the results depend on the processing

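Of 340 refits of single members under other settings, 309 kept both direction and side of the threshold, 21 reversed, 6 gained a call and 4 lost one. Of 270 refits that left out 1 library, 239 kept both, 23 reversed, 2 gained a call and 6 lost one. The cause of these changes was not tested, except that leaving out a library leaves 1 fewer in a group of 2 or 3.

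The count of all genes called for NRF1 OE in BV+ cells (1355) was 2106 with DESeq2, 3440 without the filter on low counts, 4371 with only the groups compared and 0 to 2028 when 1 library was left out (0 without BV+ NRF1 OE replicate 1 or either BV+ Ctrl library). For members it was 0, and 1 with DESeq2, without the filter and with only the groups compared. In BV- cells (2910 genes) it was 4392 without the filter, 0 with only the groups compared, 922 with GC and length offsets and 0 to 5847 when 1 library was left out (5847 without BV- NRF1 OE replicate 1, 35 without replicate 3, 0 and 1 without BV- Ctrl replicates 1 and 2). Members called there (1) were 0 with only the groups compared and 0 to 2 when 1 library was left out. For BV+ against BV- cells with NRF1 OE (2325 genes) it was 1260 with only the groups compared, 4097 with the offsets and 786 to 3182 when 1 library was left out, and for members (2) it was 1, 5 and 0 to 3. With Ctrl (190 genes) it was 303 with DESeq2, 529 without the filter, 890 with only the groups compared, 286 with the offsets and 31 to 73 when 1 library was left out. For the difference of the NRF1 OE effects (0 genes) it was 23 with DESeq2, 108 without the filter and 0 to 33 when 1 library was left out. No member was called in the comparison with Ctrl or in the difference under any alternative run.

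With the replicate number as a block, 3 genes were called for NRF1 OE in BV+ cells, 0 in BV- cells (0 members), 1064 between the fractions with NRF1 OE (1 member) and 121 with Ctrl. The numbers did not pair the libraries throughout. Over 12 same-numbered pairs the correlation of deviations from group means ran from -0.507 to 0.434 and was over 0.1 for 2. Both of those were BV- NRF1 OE with BV- Ctrl (0.414 and 0.434). Deviations in a group of 2 mirror each other, so whether the BV- libraries were paired cannot be decided from these values. Under the block, Ccnd2 in BV- cells was -1.26 (adjusted p = 0.107), Ccne1 between the fractions with NRF1 OE was -0.39 (adjusted p = 0.132), Cdk2 in BV- cells was -0.0281 and Cdk1 between the fractions with NRF1 OE was 0.0553. Of the 94 pathway genes, the block left 0 called for NRF1 OE in BV+ cells (Cdkn1c 1.49, adjusted p = 0.0534) and 0 in BV- cells, 4 higher and 0 lower in BV+ against BV- cells under NRF1 OE, and 3 higher and 0 lower under Ctrl. The third BV- NRF1 OE library has no partner and is used up by the block.

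No value that reversed was called before or after. For NRF1 OE in BV+ cells, Ccnb2 (0.0198) was -0.0141 with upper-quartile factors, -0.0041 without the filter, -0.0240 with only the groups compared and -0.0522 with the offsets, Ccne1 (-0.0024) was 0.0038 with DESeq2 and 0.0038 with its size factors in edgeR, and Ccne2 was 0.1481 with the offsets. In BV- cells the offsets gave 0.0408 for Ccna2, 0.1570 for Ccnb1, -0.0270 for Ccnd3, -0.0995 for Ccne1 and 0.1670 for Ccne2, and Cdk2 was -0.0007 with DESeq2 and -0.0005 with its size factors. Cdk1 between the fractions with NRF1 OE was 0.0350 with only the groups compared. With Ctrl, Ccnb1 was 0.0024 without the filter, and Ccnb2 was 0.0078 without the filter and 0.0430 with the offsets. For the difference of effects, Ccne2 was -0.0189 with the offsets. When 1 library was left out, the values that reversed ranged as follows. In BV+ cells they were -0.0557 to 0.1001 for Ccnb2, -0.0609 to 0.0587 for Ccne1 and -0.3603 to 0.0377 for Ccne2. In BV- cells they were -0.1546 to 0.0028 for Ccnb1, -0.1228 to 0.1031 for Ccnd1 and -0.0577 to 0.0621 for Cdk2. Between the fractions, Cdk1 with NRF1 OE ran from -0.0333 to 0.0676, and with Ctrl Ccnb1 ran from -0.0462 to 0.0131, Ccnb2 from -0.0896 to 0.0659, Ccnd3 from -0.1264 to 0.0400 and Ccne2 from -0.1744 to 0.2239. In the difference of effects, Ccna2 ran from -0.1443 to 0.0677 and Ccne2 from -0.0166 to 0.3829. Depth was lowest for Ccnd2 (163 to 738 counts per library) and Ccne2 (219 to 531), and every other member had at least 1531.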
